A study of Mus musculus with 6 samples.

Results

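The glypicans and syndecans are the 2 families of heparan sulphate proteoglycans that sit on the cell surface, and their transcripts were measured in the palatal shelves of mouse embryos at stage E14.25 of embryonic development. The members were taken by gene symbol, 6 glypicans (Gpc1 to Gpc6) and 4 syndecans (Sdc1 to Sdc4), 10 of the 23366 genes listed in the count tables. Each embryo has a left and a right shelf, which grow from the upper jaw, lift above the tongue and fuse into the secondary palate. RNA came from shelves of 3 wild type (WT) embryo samples, numbered 2, 3 and 4, and of 3 knockout (KO) samples, numbered 1, 2 and 3. The KO genotype is given as Kmt2d fl/fl Wnt1-Cre, in which the Cre recombinase is driven in the neural crest and removes floxed Kmt2d, a histone H3 lysine 4 methyltransferase gene. Epithelium, endothelium and blood cells of the shelf do not descend from the neural crest, so the deletion does not reach every cell in the sample. The WT genotype is given by that word alone, and whether these embryos carried a floxed allele or Cre is not given in the sources used here.

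Glypicans are held in the outer membrane by a glycosylphosphatidylinositol (GPI) lipid anchor, whereas syndecans cross the membrane and carry a short cytoplasmic tail. Both kinds of core protein bear heparan sulphate chains that bind growth factors of the FGF, WNT, Hedgehog and BMP families and alter how these ligands spread and reach their receptors. In the developing palate such ligands pass between epithelium and mesenchyme. The comparison of KO with WT asks how loss of Kmt2d from the neural crest alters expression of these core proteins.

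Read pairs assigned to genes numbered 20785074 to 24916079 in the WT libraries and 12721979 to 20203309 in the KO libraries. KO replicate 2 stood apart from the other 5 libraries. In it 47.5% of listed pairs fell outside annotated genes (95% Wilson interval ± 0.0160 percentage points), against 12.3% to 18.1% elsewhere, and it lay at 77.0 on principal component 1 where the others lay between -31.0 and -1.46. Results that rest on it are therefore given with and without it. KO replicates 1 and 3 differed from the WT libraries in another measure: Rn45s, a ribosomal RNA gene, took 35.1% and 30.0% of their gene counts, against 16.2% to 20.7% in the WT and 18.6% in KO replicate 2. Pairs without a unique alignment were 30.3% and 27.7% of those listed, against 18.4% to 20.99% in the WT. The targeted gene, listed as Mll2, stood at 197, 211 and 171 CPM, the unit of read counts relative to normalised library size used throughout, in WT replicates 2, 3 and 4 and at 254, 539 and 193 CPM in KO replicates 1, 2 and 3. A count over the whole gene does not check the deletion. Of 10 palatal mesenchyme markers, 10 were detected well enough to test, and the one with the highest CPM, Prrx1, stood at 591 ± 34.8 CPM in the WT and 801 ± 135 CPM in the KO (SD, n = 3 each). In whole tissue, fewer cells of a type and less RNA per cell cannot be told apart.

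The start regions of 4 members are shown because their KO libraries lay wholly to one side of the WT libraries: Sdc4, Sdc1 and Sdc3 below, Gpc2 above. The KO libraries of Gpc1 also lay wholly below, but no start region was matched for it. Each is the 250 bases before the annotated start in RefSeq, build GRCm38.p6, and capitals mark matches on either strand to TATAA, the core of the TATA box, to GGGCGG, the core of the GC box, or to CCAAT, known as the CCAAT box. They lie at chr2:164443189-164443438 on the minus strand (Sdc4), chr12:8771146-8771395 on the plus strand (Sdc1), chr4:130792287-130792536 on the plus strand (Sdc3) and chr5:138279938-138280187 on the minus strand (Gpc2). Start regions were matched for 7 of the 10 members.
Sdc4: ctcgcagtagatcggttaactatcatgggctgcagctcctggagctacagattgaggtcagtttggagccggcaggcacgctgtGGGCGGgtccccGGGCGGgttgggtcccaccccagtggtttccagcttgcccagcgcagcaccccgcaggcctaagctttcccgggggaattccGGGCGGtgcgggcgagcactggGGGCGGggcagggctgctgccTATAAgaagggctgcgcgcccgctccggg
Sdc1: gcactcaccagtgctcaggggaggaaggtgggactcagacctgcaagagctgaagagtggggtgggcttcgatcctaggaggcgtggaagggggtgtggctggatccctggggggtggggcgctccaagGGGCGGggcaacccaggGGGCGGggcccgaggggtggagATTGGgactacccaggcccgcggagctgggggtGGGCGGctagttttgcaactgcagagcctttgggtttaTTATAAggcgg
Sdc3: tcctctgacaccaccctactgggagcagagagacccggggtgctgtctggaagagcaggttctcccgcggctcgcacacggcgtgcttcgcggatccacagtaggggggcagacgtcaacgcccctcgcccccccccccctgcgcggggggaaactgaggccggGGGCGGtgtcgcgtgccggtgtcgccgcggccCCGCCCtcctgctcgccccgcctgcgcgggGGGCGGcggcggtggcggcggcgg
Gpc2: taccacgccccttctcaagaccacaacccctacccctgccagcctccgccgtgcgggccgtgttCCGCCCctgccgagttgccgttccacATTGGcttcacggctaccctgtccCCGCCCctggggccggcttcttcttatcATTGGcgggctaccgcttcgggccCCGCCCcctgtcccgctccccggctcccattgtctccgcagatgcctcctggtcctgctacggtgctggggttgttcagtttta
GGGCGG occurred 4 times in the Sdc4 window and 3 times each in those of Sdc1, Sdc3 and Gpc2, and at least once in 32.7% of the 32851 windows of the table. TATAA occurred in the Sdc4 window, 29 bases before the start, and in that of Sdc1, where it matched on both strands in overlapping letters, but not in those of Sdc3 and Gpc2, and in 22.8% of all windows. CCAAT occurred 1 time for Sdc1, 2 times for Gpc2 and not for Sdc4 or Sdc3, and in 33.9% of all windows. The matches in these windows did not overlap between motifs. The motifs were chosen after the expression values were known, and a match describes letters, not a bound factor.

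Gpc3 was the most abundant of the 10 transcripts. Levels of different genes are compared as CPM per kb of transcript, and since shorter incomplete transcripts pull down the median length of some genes, the longest annotated transcript is used beside the median. Gpc3 stood at 416 ± 9.03 CPM per kb in the WT and 426 ± 102 in the KO by the median length, and at 384 ± 8.34 and 393 ± 93.8 by the longest (SD, n = 3 each). By either length its lowest library lay above the highest library of the next member. Gpc5 was lowest by both, at 0.252 ± 0.0677 CPM per kb in the WT by the median length, on 7 to 18 counts in a library. By the longest transcript the order after Gpc3 was Gpc6, Sdc1, Gpc4, Gpc1, Sdc2, Sdc3, Sdc4, Gpc2 and Gpc5. In that order the ranges over the 6 libraries overlapped between each pair of neighbours from Sdc1 to Sdc3 and between Sdc4 and Gpc2. By the median length Sdc3 moved up to position 2 and Gpc1 to position 3, while Sdc1 moved down to position 4 and Gpc6 to position 5, so the order in the middle depends on the length used. Gpc3 made up 56.7% ± 1.67 of the summed glypican level in the WT and 58.7% ± 6.34 in the KO by the median length, and 73.8% ± 1.1 and 72.5% ± 6.24 by the longest (SD, n = 3 each). Among syndecans Sdc3 had the highest mean by the median length and Sdc1 by the longest. By the median length the ranges of Sdc3 and Sdc1 over the 6 libraries overlapped, at 141 to 191 and 76.6 to 173 CPM per kb. By the longest, Sdc2 stood above Sdc1 in KO replicate 2, at 24.7 against 20.7 CPM per kb. Sdc3 made up 45.4% ± 1.43 and 48.3% ± 6.94 of the summed level by the median length, and 21.6% ± 1.16 and 22.7% ± 3.68 by the longest (WT and KO, SD, n = 3 each). Sdc1 made up 41.9% ± 1.79 and 39.0% ± 7.41 of the summed level by the median length, and 40.7% ± 2.66 and 37.2% ± 6.88 by the longest (WT and KO, SD, n = 3 each).

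**Figure D1:**
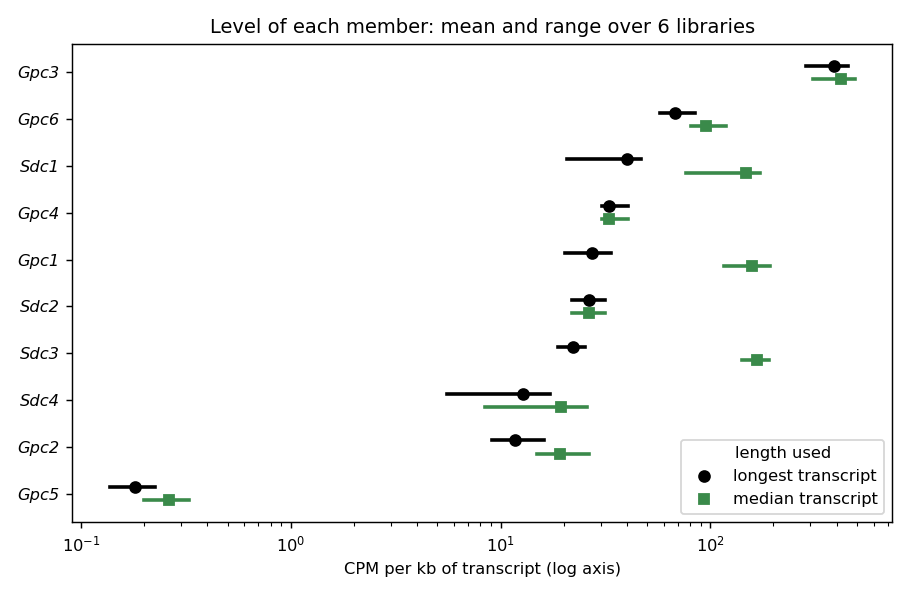
Level of each member as CPM per kb of transcript on a log axis, by the longest (circles) and the median (squares) annotated transcript length; points are means and lines the range over 6 libraries. Gpc3 lies above and Gpc5 below all other members by both lengths, while Gpc1, Sdc1 and Sdc3 shift with the length used.

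None of the 10 members passed the test between KO and WT across all genes (edgeR quasi-likelihood test, Benjamini-Hochberg adjusted p from 0.199 for Gpc2 to 0.946 for Gpc3). Over the 14233 genes tested, 0.534% passed, and 0.436% passed with a lower level in the KO. At an unadjusted p under 0.05 there were 4 of 10 members, Gpc2, Sdc4, Gpc1 and Sdc3, and 2021 of the 14233 genes tested. DESeq2 called 2 members, Sdc4 (adjusted p = 0.0157) and Gpc1 (adjusted p = 0.031), in a fit that called 3.41% of all genes, and limma voom called 0. Without KO replicate 2, 1 member fell past the threshold, Sdc4 (edgeR, adjusted p = 0.00703), in a fit in which 2.12% of genes passed and 1.57% passed as lower. The KO libraries lay wholly below the WT libraries for 4 of the 10 members, Sdc4, Gpc1, Sdc1 and Sdc3, against 11.2% of all genes tested. They lay wholly above for 1 member, Gpc2, and separation in either direction occurred in 23.5% of all genes. The median log2 fold change was -0.33 over the 4 syndecans and 0.11 over the 6 glypicans, and 0.011 over all genes tested. Without KO replicate 2 the syndecan median was -0.19 and the glypican median 0.13.

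**Figure D2:**
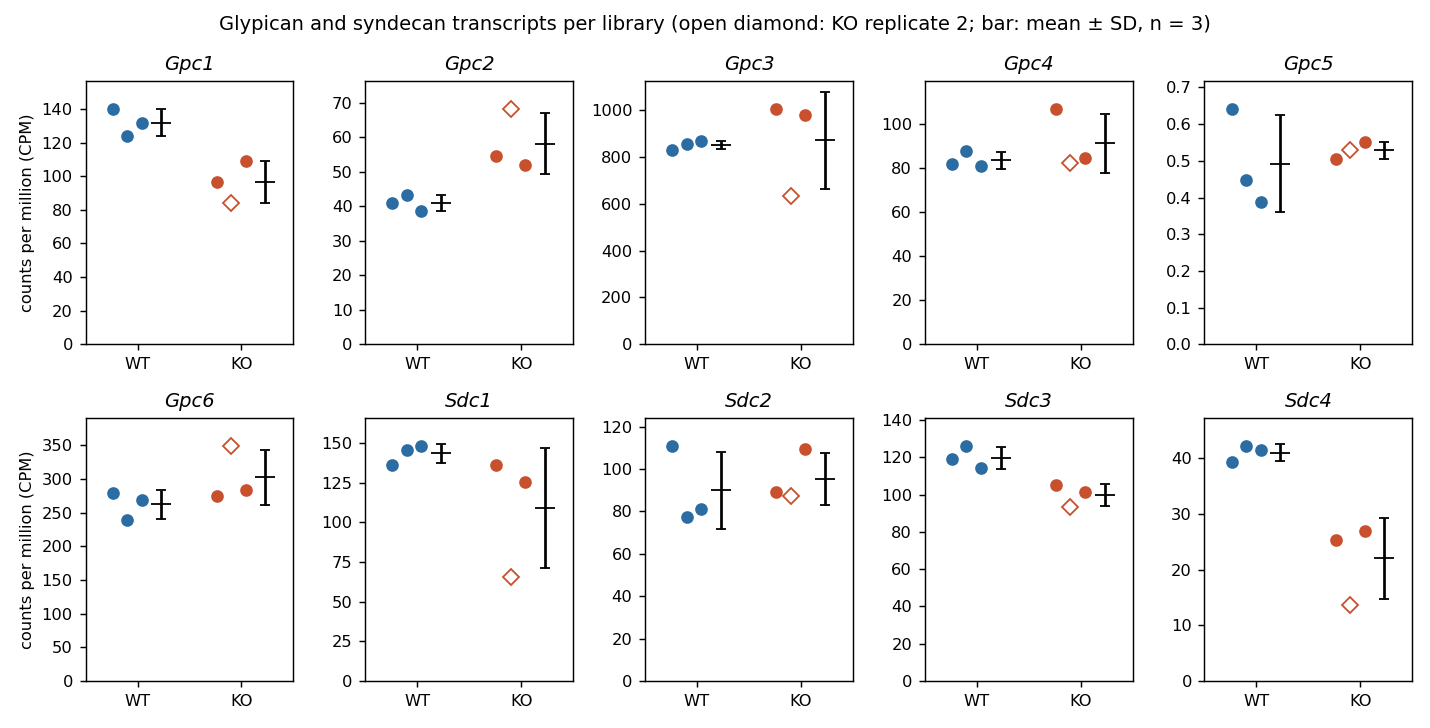
CPM of each of the 10 members in each library, WT in blue and KO in red, with the mean ± SD (n = 3) in black and KO replicate 2 as an open diamond. Sdc4, Sdc1, Sdc3 and Gpc1 have all KO points below all WT points, and Gpc2 has them all above.

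Sdc4 had the largest fitted difference of the 10. Sdc4 encodes the broadly expressed syndecan of focal adhesions, whose tail binds protein kinase C alpha. It stood at 39.3, 42.2 and 41.5 CPM in WT replicates 2, 3 and 4 and at 25.4, 13.7 and 27.0 CPM in KO replicates 1, 2 and 3. The WT libraries lay close together, each KO library lay below them, and KO replicate 2 was lowest, on 181 counts. The log2 fold change was -0.90 with a standard error of 0.24 (edgeR, adjusted p = 0.209), and -0.66 with a standard error of 0.091 without KO replicate 2 (adjusted p = 0.00703). The latter rests on KO replicates 1 and 3, the libraries with the highest Rn45s share. The log2 fold change lay between -1.07 and -0.66 with any 1 library left out and passed in 1 of those 6 fits.

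Sdc1, the syndecan typical of epithelia and plasma cells, was separated between the groups by a very small margin. It stood at 136.3, 145.7 and 148.1 CPM in WT replicates 2, 3 and 4 and at 135.97, 65.5 and 125.1 CPM in KO replicates 1, 2 and 3. KO replicate 1 nearly touched WT replicate 2, and KO replicate 2 lay far below the rest. The log2 fold change was -0.40 with a standard error of 0.25 (edgeR, adjusted p = 0.476), and -0.14 without KO replicate 2 (adjusted p = 0.398). Sdc1 and Sdc4 thus differed in how far they stood from the WT. Their ratio, in which the scaling of a library cancels, was 2.70, 2.69 and 2.78 per length in WT replicates 2, 3 and 4 and 4.17, 3.72 and 3.61 in KO replicates 1, 2 and 3, by the longest transcripts. Each KO library thus held less Sdc4 for its Sdc1 than any WT library did, KO replicate 2 included. This ratio was chosen after the values were seen and carries no test.

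In sum, epithelial markers lay below the WT libraries in each KO library, as Sdc1 and Sdc4 did. So did chondrocyte, endothelial and macrophage markers, whose sums were also lowest in KO replicate 2 (152, 229 and 41.5 CPM). The 12 epithelial markers summed to 725 to 874 CPM in the WT libraries and 371 to 661 CPM in the KO libraries, and KO replicate 2 was lowest here too. Of the 12, 12 had a negative log2 fold change, 8 had all KO libraries below all WT libraries, 0 passed the test (edgeR) and none was at 0 in all libraries. Over all genes tested, 48.5% were negative, 11.2% had all KO libraries below all WT libraries and 0.436% passed as lower. As a percentage of the WT mean, KO replicates 1, 2 and 3 stood at 77.0%, 45.8% and 81.6% for the epithelial sum, at 94.8%, 45.7% and 87.2% for Sdc1 and at 61.9%, 33.4% and 65.7% for Sdc4. In each KO library Sdc4 lay further from its WT mean than the epithelial sum did. In KO replicates 1 and 3 Sdc1 lay nearer to its WT mean than that sum did. The sum joins markers that differed widely, with log2 fold changes from -1.46 for Krt15 to -0.034 for Trp63, beside -0.90 for Sdc4. Krt15 stood at 85.7, 108.6 and 83.9 CPM in the WT and 36.2, 20.9 and 43.7 CPM in the KO. Krt15 and Trp63 were named after their values were seen. Without KO replicate 2, 3 of the 12 fell past the threshold (edgeR), where 1.57% of all genes passed as lower. For Krt14, a keratin of basal epithelium and the marker with the highest CPM, the groups overlapped, and its log2 fold change was -0.16 over all libraries but 0.12 without KO replicate 2. Whether the epithelial share of the tissue played a part in the syndecan values was not tested.

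**Figure D3:**
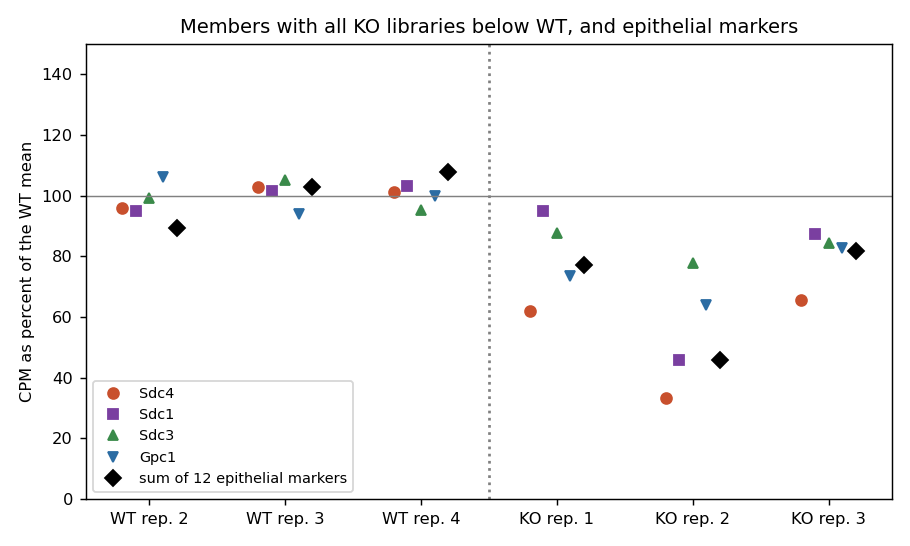
CPM of Sdc4, Sdc1, Sdc3, Gpc1 and the sum of 12 epithelial markers in each library, as a percent of the WT mean of each item. In the 3 KO libraries Sdc4 stands at 33.4% to 65.7% and the epithelial sum at 45.8% to 81.6%.

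Sdc3, the syndecan of neural tissue and the musculoskeletal system, showed a small and even shift. It stood at 119.1, 126.1 and 114.3 CPM in WT replicates 2, 3 and 4 and at 104.9, 93.2 and 101.3 CPM in KO replicates 1, 2 and 3. The groups did not overlap, and the gap between them was narrower than the range within either group. The log2 fold change was -0.26 with a standard error of 0.097 (edgeR, adjusted p = 0.323), -0.23 without KO replicate 2, and -0.13 once each library's trends with GC content and transcript length were removed (adjusted p = 0.558). Sdc3 has the highest GC content of the 10 transcripts, 61.0%, followed by Gpc1 at 59.1% and Sdc1 at 58.9%. With the same trends removed, the log2 fold change of Gpc1 went from -0.45 to -0.35 and that of Sdc1 from -0.40 to -0.32. The 12 neuronal markers summed to 260 to 393 CPM in the WT and 198 to 481 CPM in the KO, with none at 0 in all libraries and with overlap between the groups, and their part in the Sdc3 values was not tested. Sdc2, known from mesenchymal cells, stood at 110.9, 77.5 and 81.3 CPM in the WT libraries and 89.0, 87.3 and 109.5 CPM in the KO libraries. These values overlapped fully (log2 fold change 0.083, standard error 0.17, edgeR, adjusted p = 0.833). Summed over the 4 syndecans, the WT libraries held 405.5, 391 and 385 CPM and KO replicates 1, 2 and 3 held 355, 259.6 and 363 CPM, so the sum was lower in each KO library, with no test made on it.

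Among the glypicans, Gpc1 and Gpc2 lay on opposite sides. Gpc1, which binds FGFs and is found in brain and skeletal tissue, stood at 139.8, 124.0 and 131.6 CPM in WT replicates 2, 3 and 4 and at 96.8, 84.2 and 108.9 CPM in KO replicates 1, 2 and 3. Each KO library was lower than each WT library. The log2 fold change was -0.45 with a standard error of 0.12 (edgeR, adjusted p = 0.216), -0.37 without KO replicate 2 (adjusted p = 0.0612), and between -0.54 and -0.37 with any 1 library left out. Gpc2, the glypican of differentiating neurons also called cerebroglycan, stood at 40.9, 43.4 and 38.7 CPM in the WT libraries and at 54.6, 68.2 and 51.9 CPM in KO replicates 1, 2 and 3. All KO libraries were higher, KO replicate 2 most of all. The log2 fold change was 0.51 with a standard error of 0.13 (edgeR, adjusted p = 0.199), and 0.37 without KO replicate 2 (adjusted p = 0.0699). The summed neuronal markers overlapped between the groups, and of the 12 single markers 11 did so. The exception, Map2, a neuronal microtubule protein named here after its values were seen, stood at 46.4, 45.7 and 38.1 CPM in the WT and 48.9, 75.3 and 58.7 CPM in the KO, highest in KO replicate 2 as Gpc2 was (log2 fold change 0.49, edgeR, adjusted p = 0.304). Dcx, a microtubule protein of migrating neurons and the neuronal marker with the highest CPM, stood at a log2 fold change of 0.25 over all libraries but -0.33 without KO replicate 2. The part of neuronal RNA in the Gpc2 values was not tested. Counts of Gpc1 per count of Gpc2 stood at 3.42, 2.86 and 3.40 in the WT libraries and 1.77, 1.24 and 2.10 in the KO libraries. Like the syndecan ratio this was chosen after the values were seen, and library scaling cancels in it.

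**Figure D4:**
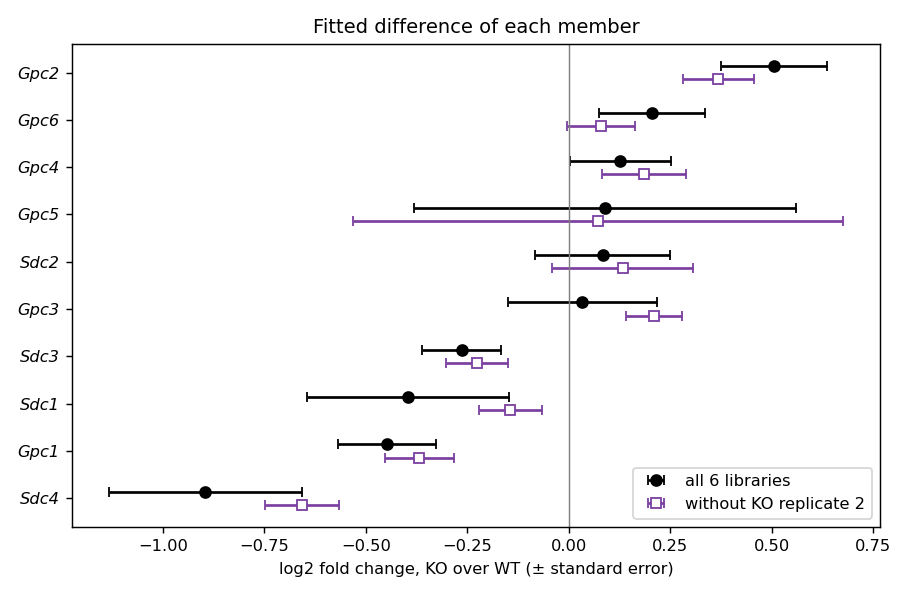
Fitted log2 fold change of KO over WT for each member, with its standard error, from all 6 libraries (black circles) and without KO replicate 2 (open squares). Sdc4 lies lowest, at -0.90 and -0.66, and Gpc2 highest, at 0.51 and 0.37.

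The other glypicans overlapped between the groups. Gpc3, whose human counterpart is mutated in the overgrowth disorder Simpson-Golabi-Behmel syndrome and which restrains Hedgehog signalling by binding its ligands, stood at 831, 857 and 867 CPM in WT replicates 2, 3 and 4 and at 1004, 632 and 978 CPM in KO replicates 1, 2 and 3. KO replicates 1 and 3 lay above and KO replicate 2 below every WT library. Its log2 fold change of 0.033 (standard error 0.18, edgeR, adjusted p = 0.946) became 0.21 without KO replicate 2 (standard error 0.070, adjusted p = 0.178) and was negative without KO replicate 1 (-0.080) or KO replicate 3 (-0.060). Gpc4, whose human counterpart is mutated in Keipert syndrome, stood at 81.8, 87.9 and 81.1 CPM in the WT and 106.8, 82.6 and 84.5 CPM in the KO (log2 fold change 0.13, standard error 0.12, adjusted p = 0.642). Gpc6, whose human counterpart is mutated in omodysplasia, a disorder of limb and face growth, stood at 279.4, 238.7 and 268.8 CPM in the WT and 274.1, 349.1 and 283.6 CPM in the KO. Its log2 fold change was 0.20 (standard error 0.13, adjusted p = 0.482), and 0.079 without KO replicate 2, the library in which it was highest. Gpc5 had 18, 10 and 9 counts in the WT libraries and 8, 7 and 10 in the KO libraries, too few to show any but a large difference (log2 fold change 0.089, standard error 0.47, adjusted p = 0.943). Summed glypican levels were 1374, 1351 and 1388 CPM in the WT and 1537, 1216 and 1508 CPM in KO replicates 1, 2 and 3.

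Several members lie beside each other or beside related genes in the RefSeq gene order of GRCm38.p6. Gpc3 and Gpc4 are direct neighbours on chromosome X, yet Gpc3 stood 12.2 ± 0.569 times above Gpc4 per length in the WT and 11.4 ± 2.35 times in the KO (SD, n = 3 each, longest transcripts). Gpc5 and Gpc6 are direct neighbours on chromosome 14, and Gpc6 stood 298 to 475 times above Gpc5 over the 6 libraries. Sdc1, Sdc3 and Sdc4 each have 1 protein-coding gene between them and a matrilin gene, Matn3, Matn1 and Matn4, and Sdc2 has 5 between it and Matn2. Matrilins are matrix proteins found mainly in cartilage. Matn4 stood at 43.7, 13.5 and 13.6 CPM in the WT and 13.8, 3.41 and 15.1 CPM in the KO, overlapping where its neighbour Sdc4 did not (edgeR, adjusted p = 0.43). Matn1 stood at 23.8, 5.74 and 4.69 CPM in the WT and 2.59, 0.0757 and 0.718 CPM in the KO (adjusted p = 0.233). Matn3 stood at 5.62, 0.762 and 0.775 CPM in the WT and 0.253, 0.0757 and 0.387 CPM in the KO (adjusted p = 0.285). For both Matn1 and Matn3, as for their neighbours Sdc3 and Sdc1, each KO library lay below each WT library, as in 11.2% of all genes tested. Matn3 had only 205 counts over the 6 libraries. Both are among the chondrocyte markers, whose sum was lower in each KO library. Matn2 stood at 43.2, 26.0 and 33.8 CPM in the WT and 30.2, 25.1 and 15.0 CPM in the KO, with overlap (edgeR, adjusted p = 0.399). The matrilins were chosen after their values were seen.

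The genes most like Gpc2, the member with the smallest p, over the 6 libraries were Troap, Gltscr1 and Gprasp1. Likeness was the mean absolute difference in mean-centred log2 CPM over these libraries, among 13430 genes, and it was 0.0295, 0.0324 and 0.0352 for the 3. Gltscr1, for example, stood at 32.5, 33.2 and 29.7 CPM in the WT and 44.2, 54.4 and 39.6 CPM in the KO. None of the 3 passed the test (edgeR, adjusted p = 0.203 to 0.253). As they were chosen for likeness to Gpc2 in these same libraries, their p-values are not independent of its own.

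The enzymes that build, edit and break down heparan sulphate, the other core proteins and the partners of the syndecan tail gave no gene past the threshold. Of 67 genes in these 7 lists, 66 could be tested, 0 rose and 0 fell (edgeR, and 0 passed in DESeq2 and 0 in limma voom), and 0 passed without KO replicate 2. At an unadjusted p under 0.05 there were 12 of the 66, beside 2021 of the 14233 genes tested. Over these 66 genes the log2 fold change had a median of -0.13 and was negative in 45, where 48.5% of all genes tested were negative. In 20 of the 66 the KO libraries lay wholly below the WT libraries and in 2 wholly above. Over all genes tested, 11.2% lay wholly below and 23.5% were separated in either direction. Without KO replicate 2 the median over the 66 was -0.097 and 45 were negative, where 46.7% of all genes were negative.

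Each list is described by the member with the smallest p. Of 6 enzymes and kinases of the linkage to the core protein, 3 were negative, and Fam20b, the xylose kinase, stood at 55.0, 69.6 and 64.9 CPM in the WT and 53.0, 51.5 and 52.1 CPM in the KO (adjusted p = 0.342). Of 5 genes of the EXT family, which includes the polymerases of the chain, 5 were negative with a median of -0.18, or -0.11 without KO replicate 2. In that family Extl1 stood at 3.63, 2.15 and 2.45 CPM in the WT and 1.58, 0.681 and 1.66 CPM in the KO (adjusted p = 0.323). The main polymerase gene Ext1, named after its values were seen, stood at 85.4, 85.4 and 87.8 CPM in the WT and 83.5, 76.7 and 88.7 CPM in the KO. Of 20 genes of sulphation and epimerisation, 10 were negative, with a median of 0.016, or -0.050 without KO replicate 2. Glce, the C5-epimerase that turns glucuronic into iduronic acid, stood at 82.8, 91.8 and 86.0 CPM in the WT and 64.2, 59.0 and 76.2 CPM in the KO (edgeR, adjusted p = 0.269). Its groups did not overlap.

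Of 13 genes that edit chains at the surface or release core proteins, 11 were negative, with a median of -0.18. Pcsk5, a proprotein convertase, ran the other way, at 46.7, 61.3 and 49.2 CPM in the WT and 78.8, 83.3 and 64.2 CPM in the KO (adjusted p = 0.231). Of 8 lysosomal genes, 6 were negative, and Gusb, the beta-glucuronidase, stood at 30.0, 31.8 and 28.8 CPM in the WT and 24.5, 18.2 and 24.4 CPM in the KO (adjusted p = 0.29). Of 7 other core proteins that carry heparan sulphate always or at times, 5 were negative, and Col18a1, a basement membrane collagen, stood at 169, 184 and 193.6 CPM in the WT and 153, 98.2 and 149 CPM in the KO (adjusted p = 0.327). Of 7 tested partners of the syndecan tail, 5 were negative, and Actn4, an actin crosslinker that binds the Sdc4 tail, stood at 256, 260.3 and 270.6 CPM in the WT and 221, 174 and 212 CPM in the KO (adjusted p = 0.273). In the last 3 genes named the groups did not overlap, and in each KO replicate 2 was the lowest library.

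**Figure D5:**
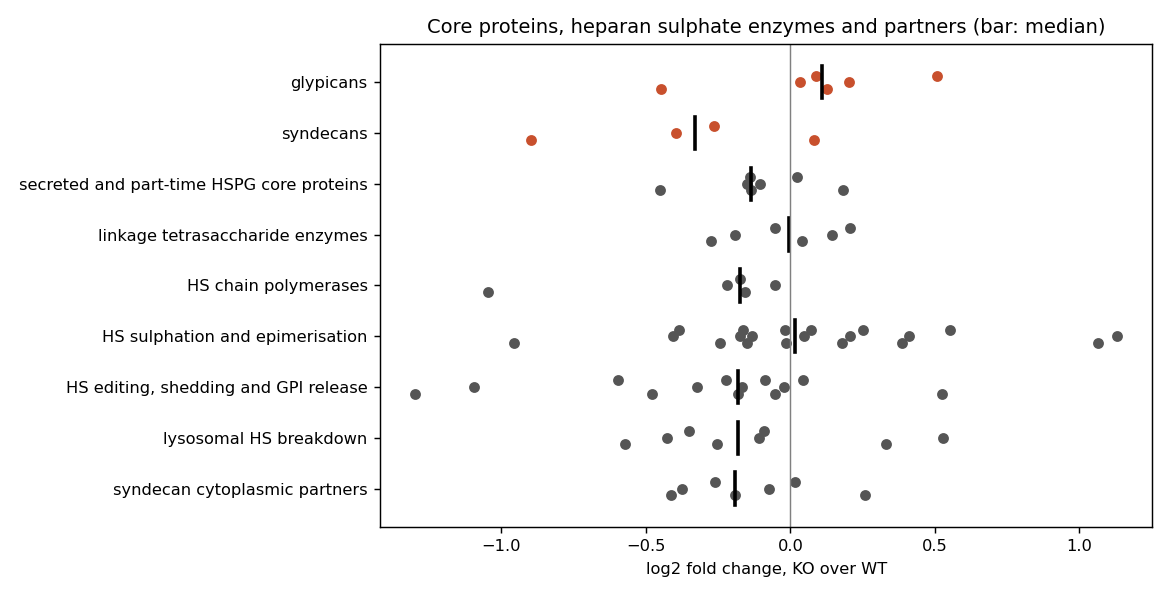
Log2 fold change of KO over WT for the glypicans and syndecans (red) and for the genes of 7 heparan sulphate lists (grey), with the median of each list as a bar. The syndecan median is -0.33 (-0.19 without KO replicate 2) and the glypican median 0.11, and no point shown passed the test across all genes.

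Markers of other cells also differed in level between the libraries. The summed level of 9 chondrocyte markers, led by Col2a1, was 415 to 1432 CPM in the WT and 152 to 356 CPM in the KO, that of 9 osteoblast markers, led by Col1a1, 1822 to 3205 and 736 to 1090.3 CPM, and that of 8 endothelial markers, led by Cdh5, 287 to 315 and 229 to 266 CPM. Macrophage markers, led by Mrc1, summed to 62.9 to 69.7 CPM in the WT and 41.5 to 47.4 CPM in the KO, and Schwann and glial markers, led by Ngfr, to 158 to 169 and 97.3 to 126 CPM. Palatal mesenchyme markers summed to 1569 to 1626 CPM in the WT and 1729 to 2042 CPM in the KO, with 5 of 10 negative and a median log2 fold change of -0.025. Some of these separations rested on 1 gene. Without Prrx1 the mesenchyme sum overlapped between the groups (939 to 1044 and 956 to 1106 CPM), as did the osteoblast sum without Col1a1 (136 to 306 and 148 to 346 CPM) and the Schwann and glial sum without Ngfr (70.8 to 76.0 and 57.5 to 82.1 CPM). The KO libraries stayed below the WT libraries in the epithelial, chondrocyte, endothelial and macrophage sums without their gene of highest CPM. Skeletal muscle markers, led by Ttn, summed to 342 to 678 CPM in the WT and to 280 to 11585 CPM in the KO, with the highest value in KO replicate 2. Most of that value was Ttn, at 10160 CPM. Without Ttn the sum was 249 to 522 CPM in the WT and 301, 1426 and 208 CPM in KO replicates 1, 2 and 3. Of the 82 markers tested, 2 fell past the threshold, Col1a1 (edgeR, adjusted p = 0.0376) and Ngfr (adjusted p = 0.0194), 0 rose, and no listed marker was at 0 in all libraries. Over all genes tested, 0.436% passed as lower. With any 1 of the 6 libraries left out, the Col1a1 log2 fold change no longer passed (edgeR, adjusted p = 0.0797 to 0.19), at values of -1.83 to -1.43 against -1.66 over all libraries. The Ngfr log2 fold change passed without KO replicate 1 or 2 but not without any other library (adjusted p = 0.000407 to 0.15), at values of -1.30 to -1.11 against -1.21 over all libraries. Without KO replicate 2, 5 markers fell past the threshold, where 1.57% of all genes passed as lower. The part of these cell types in the values of the glypicans and syndecans was not tested.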

How the data were processed

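RNA of dissected shelves, frozen in Trizol, went through mRNA isolation and library preparation with a stranded kit and was sequenced as paired reads of 25 bases, per the labels. Per the submitters' processing notes, TopHat2, SAMtools and HTSeq were used with mm9; tool versions, gene annotation and strand setting were not given. Each deposited table holds, for 1 library, whole-number counts against gene symbols that the authors did not normalise. Category lines (5 per table) stayed out of totals and tests; pairs with several alignments were 18.1% to 30.3% of those listed. The labels call the 3 samples of each group biological replicates, without naming litters. The tests set a group difference against the spread between these samples, and an effect of shared litters could not be seen. No 2 libraries of a group agreed within sampling noise (chi-square per degree of freedom 11.5 to 163). Wilson intervals cover counting error only.

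Library sizes were adjusted with edgeR's TMM factors, and the filterByExpr filter left 14233 genes, 10 of 10 members among them. Groups were compared with edgeR 4.0.16 (quasi-likelihood, robust) in R 4.3.3, with Benjamini-Hochberg adjustment over all genes at 0.05. The test was tested on simulated data with 200 changed genes. Alternatives were other size factors, DESeq2 1.42.0, limma 3.58.1 voom with and without sample weights, other filters, omission of Rn45s and Lars2, of each library, and the replicate number as a block. Removal of GC and length trends was added after seeing the data. Lengths and GC content came from GENCODE vM21 (98.5% of genes matched).

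The members, lists and tests were chosen with earlier results of these data known. Named were all members, from each heparan sulphate list up to 4 genes past the threshold or else the 1 with the smallest p, the most abundant marker of each cell type list, and the 3 genes most like the member with the smallest p.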

Additional observations from a re-analysis of the deposited data

How the results depend on the processing

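The count of glypicans and syndecans past the threshold was 0 with other size factors, limma voom, other filters, Rn45s and Lars2 left out, or GC and length trends removed. It was 2 with DESeq2 (Sdc4 and Gpc1), 1 with voom and sample quality weights (Sdc4, adjusted p = 0.0189) and 0 to 1 with single libraries left out. The count over all genes was 76, with 486 in DESeq2, 316 with quality weights and 0 to 306 with single libraries left out: 0 without WT replicate 2 or 3, 3 without WT replicate 4, 20 without KO replicate 1, 306 without KO replicate 2 and 11 without KO replicate 3. Among the other listed genes 2 passed, with 8 in DESeq2, 6 with quality weights and 4 with no filter. That count was 3 with Rn45s and Lars2 left out and 1 with GC and length trends removed. With single libraries left out it was 5 without KO replicate 2, 1 without KO replicate 1 and 0 without any other.

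The same replicate numbers occur in both groups only for 2 and 3, whose deviations from the group means correlated across genes at 0.21 and -0.14, so the numbers were not taken to pair samples. With the replicate number as a block, 298 genes, 1 member (Sdc4, log2 fold change -1.08, adjusted p = 0.00491) and 14 other listed genes passed, on 1 residual degree of freedom.

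Sdc4, Sdc1, Sdc3, Gpc1, Gpc2 and Gpc6 kept their sign in each fit run. Signs reversed for Gpc3 (-0.0019 with voom, -0.10 with the replicate block, -0.024 with GC and length trends removed, -0.080 to 0.21 with single libraries left out), Gpc4 (-0.022 with the block, -0.00056 to 0.19), Sdc2 (-0.060 with trends removed, -0.031 to 0.26) and Gpc5 (-0.054 to 0.34). Krt14 reversed to 0.072 and Dcx to -0.43 with quality weights, and with single libraries left out they ranged from -0.34 to 0.12 and from -0.33 to 0.58, the reversed sign arising without KO replicate 2. The Gpc3 share of the summed glypican level, WT, was 73.8% by the longest transcript and 62.1% without division by length, and in the KO 72.5% by the longest, and that of Sdc1 among syndecans 36.4% (WT) without division. The cause of these changes was not tested. Depth limits Gpc5 most, with at most 18 counts in a library.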
